A study of Mus musculus with 12 samples.

Results

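The effector immunity-related GTPases (IRG proteins) of the mouse are described here through the transcripts of 8 genes in an Eµ-myc B cell lymphoma line exposed to interferon-γ (IFN-γ) for different times. The genes were taken by name: Iigp1, Tgtp1, Tgtp2, Ifi47, Gm12250, Gm4841, Gm4951 and F830016B08Rik. All 8 were found among the 53379 gene identifiers of the count table, and all 8 were among the 14299 genes that passed the filter on low counts. Genes that were close to 0 elsewhere passed it through the 24 h group alone, so their passing says nothing about the other groups.

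The line comes from a lymphoma of a C57BL/6 mouse in which an immunoglobulin heavy chain enhancer drives the Myc oncogene in B lineage cells, and it was grown in RPMI medium with FCS. There were 4 groups of 3 libraries: cells with no IFN-γ, cells given 5 ng/mL of recombinant mouse IFN-γ whose exposure is labelled 1 h or 6 h, and cells with an exposure of 24 h. The antibody XMG1.2 at 50 µg/mL neutralised the cytokine to end the shorter exposures, and cells were collected 24 h after stimulation began, per the labels. A value of the 1 h or 6 h group is therefore a level long after the cytokine was blocked, not a level at 1 h or 6 h. The labels do not say whether the unstimulated and 24 h cells received antibody, nor whether the 3 libraries of a group came from separate cultures, so the p-values measure only the spread between these libraries, which may be technical. It is 1 line of tumour cells in culture, and all 4 groups carry the Myc transgene.

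IRG proteins are GTPases that most mouse cells make in quantity after interferon. The effectors, also called GKS proteins after a motif in their nucleotide-binding site, load onto the vacuole around parasites such as Toxoplasma gondii or around Chlamydia and break its membrane. Regulatory IRG proteins (Irgm1, Irgm2 and Igtp) sit on the cell's own membranes and hold effectors in the inactive, GDP-bound state, and the ATG conjugation machinery of autophagy steers the effectors to the vacuole. IFN-γ acts on such genes through short promoter elements called GAS and ISRE, and IRF1 is a transcription factor that binds the latter.

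The stretches before the start sites of 3 of the genes are shown first, because they hold the letters of both elements close together. RefSeq promoter windows, from 250 bases before to 50 bases after a start, were available for Tgtp1, Tgtp2, Ifi47 and Gm12250, on build GRCm38.p6. The motifs searched on both strands were an ISRE core, written GAAA, any 2 bases, GAAA, and GAS, written TTCNNNGAA, which share no base with each other in the sequences printed. Capitals mark the matches, and each line runs 5′ to 3′ on the gene's own strand from 120 to 21 bases before the RefSeq start.
Tgtp1, chr11:48992267-48992366, minus strand: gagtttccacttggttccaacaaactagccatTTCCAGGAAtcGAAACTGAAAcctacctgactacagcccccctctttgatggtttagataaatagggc
Tgtp2, chr11:49064233-49064332, minus strand: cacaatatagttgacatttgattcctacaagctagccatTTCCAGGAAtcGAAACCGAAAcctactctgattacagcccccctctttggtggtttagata
Gm12250, chr11:58183723-58183822, plus strand: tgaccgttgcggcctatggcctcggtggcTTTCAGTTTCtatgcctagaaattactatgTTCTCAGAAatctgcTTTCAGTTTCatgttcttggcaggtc
In Tgtp1 the GAS match covers positions -88 to -80 and the ISRE core -77 to -68, and in Tgtp2 they cover -81 to -73 and -70 to -61. Gm12250 has an ISRE core on the opposite strand at -91 to -82 and again at -46 to -37, with a GAS match between them at -61 to -53. No match to either motif is in the 300 bases of Ifi47. Of 32851 such windows in the RefSeq table, 3.44% hold the ISRE core, 8.3% hold GAS and 0.45% hold both. A match is a run of letters and not a measured binding site.

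The arrangement shared by both Tgtp genes was then searched for by itself: a GAS match, 2 bases, and an ISRE core on 1 strand. This search was chosen after the sequences had been seen. It was found in windows of 5 genes, 0.0152% of the table, and all 5 lie on chromosome 11 and encode IRG-type proteins. Tgtp1 and Tgtp2 were bound to be among them, since the arrangement was read from their sequences. Transcripts of Gm12185 share 125-base windows with both, so its match may not be a separate find. Only 4 of the 8 effector genes had a promoter window in the table, so the others could not have been found. The percentage is thus a description and not a test. The 21 bases of each of the 5 genes are given with capitals on the 2 matches.
Tgtp1: TTCCAGGAAtcGAAACTGAAA
Tgtp2: TTCCAGGAAtcGAAACCGAAA
Gm12185: TTCCAGGAAtaGAAAGTGAAA
Irgm2: TTCCAGGAActGAAACTGAAA
Igtp: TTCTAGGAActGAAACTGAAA
All 5 of these genes were called higher after 24 h of IFN-γ, as given below, where 10.3% of all genes tested were called higher. Tgtp1 and Gm12185 passed the filter on low counts through the 24 h group alone, so their rise was fixed beforehand. Whether the arrangement has a part in the rise was not tested. Ifi47, without a match, and Irgm1, with the ISRE core at -30 to -21 and an overlapping one at -24 to -15 but no GAS, were called higher as well.

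The 8 genes lie in 3 places (GRCm38, with exon models from GENCODE M21, whose identifier version equals that of the table for 6 of them). On chromosome 11, Tgtp1 (48985327 to 48994172, minus strand, 3205 exon bases) is followed after 63.02 kb by Tgtp2 (49057194 to 49064206, minus strand, 2938 exon bases). Ifi47 (49076587 to 49096974, plus strand, 2473 exon bases) begins 12.38 kb further on, and Gm12250 lies 9091 kb beyond it. On chromosome 18, Gm4951 (60212080 to 60247820, plus strand), Gm4841 (60268305 to 60273272, minus strand), F830016B08Rik (60293380 to 60303016, plus strand) and Iigp1 (60376027 to 60392634, plus strand) lie within 180.6 kb. Gm12250, which encodes Irgb10, is a single block of 1274 bases (58187739 to 58189012, plus strand) labelled a processed pseudogene in GENCODE, while RefSeq has it as a protein-coding gene from 58183843 to 58190198. Its counts may therefore leave out reads of exons outside that block.

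Sequence likeness limits which of these values belong to a single gene. The coding sequences of Tgtp1 and Tgtp2, which both encode Irgb6, are 99.7% identical, and 68.9% of the 125-base windows of Tgtp1 transcripts and 72.1% of those of Tgtp2 also occur in transcripts of the other or of Gm12185. Reads were 125 bases long, and how reads with several matches were counted is not given in the sources used here, so levels of Tgtp1, Tgtp2 and Gm12185 are uncertain for the single gene. None of the other 6 genes shares such a window with another gene. Their nearest likeness was between Iigp1 and Gm4951 (88.0% of aligned coding bases) and between Gm4841 and F830016B08Rik (78.2%). Tgtp1 shares 223 exon bases (6.96%) with Gm12185 on its strand, and Ifi47 shares 111 (4.49%) with Olfr56 on its strand and 106 (4.29%) with the pseudogene Gm12188 on the other.

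Library totals ran from 49440358 to 67096610 counts. Even numbers made up 69.9% to 73.9% of the counts between 1 and 20 in each library, which is what arises when both mates of a read pair are counted, so 2 counts are often 1 pair of reads. Folds below compare groups by their summed counts over their summed TMM-adjusted library totals. They have 95% exact intervals on read pairs, which cover counting error only. Where a group is at 0, the fold is a lower bound against 6 counts (3 read pairs) over the group. All 9 B lineage markers were above 1 CPM (counts relative to the TMM-adjusted library total) in every group, summing to 2510 to 2660 CPM in the libraries outside the 24 h group and to 2360 to 2370 CPM at 24 h. Macrophage markers summed to 1.35 to 2.94 CPM (1 of 6 at 1 CPM or more, Marco at 0 in every group), and T and NK cell markers to 0.692 to 1.35 CPM with Cd4, Cd8a and Ncr1 at 0. Fibroblast and erythroid markers summed to 0.187 CPM or less in each library. In a principal component analysis the 24 h libraries stood apart on the first component (44.1% of the variance), and replicate 3 of the 6 h group alone stood apart on the second (7.84%, score -39.13 against -0.4426 to 11.82 in the other 11).

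After 24 h of IFN-γ all 8 effector genes rose, from a summed level of 1.965 ± 0.381 CPM (SD, n = 3) in unstimulated cells to 1597 ± 31.3 CPM. In counts this was 85, 107 and 131 in the unstimulated libraries and 92757, 90255 and 105527 in the 24 h libraries, where the 8 genes took 0.157% to 0.163% of each library. All 8 passed the edgeR quasi-likelihood test (adjusted p between 6.39e-26 and 1.6e-18 over all genes tested), and none was lower. Of all genes tested, 10.3% were called higher and 8.35% lower in this comparison. SEs of log2 fold changes follow the ± sign below. The median fold of the 8 was 1170, with genes at 0 taken at their lower bound, against 0.998 over all genes tested. The latter was taken from fitted log2 fold changes. In each of the 8 genes the 24 h libraries lay above the other 9, a separation from unstimulated libraries seen in 17.2% of all genes. Tgtp1, Gm4841, Gm4951 and F830016B08Rik had no count in unstimulated cells and passed the filter on low counts through the 24 h group. Their separation from unstimulated libraries was thus fixed beforehand.

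**Figure D1:**
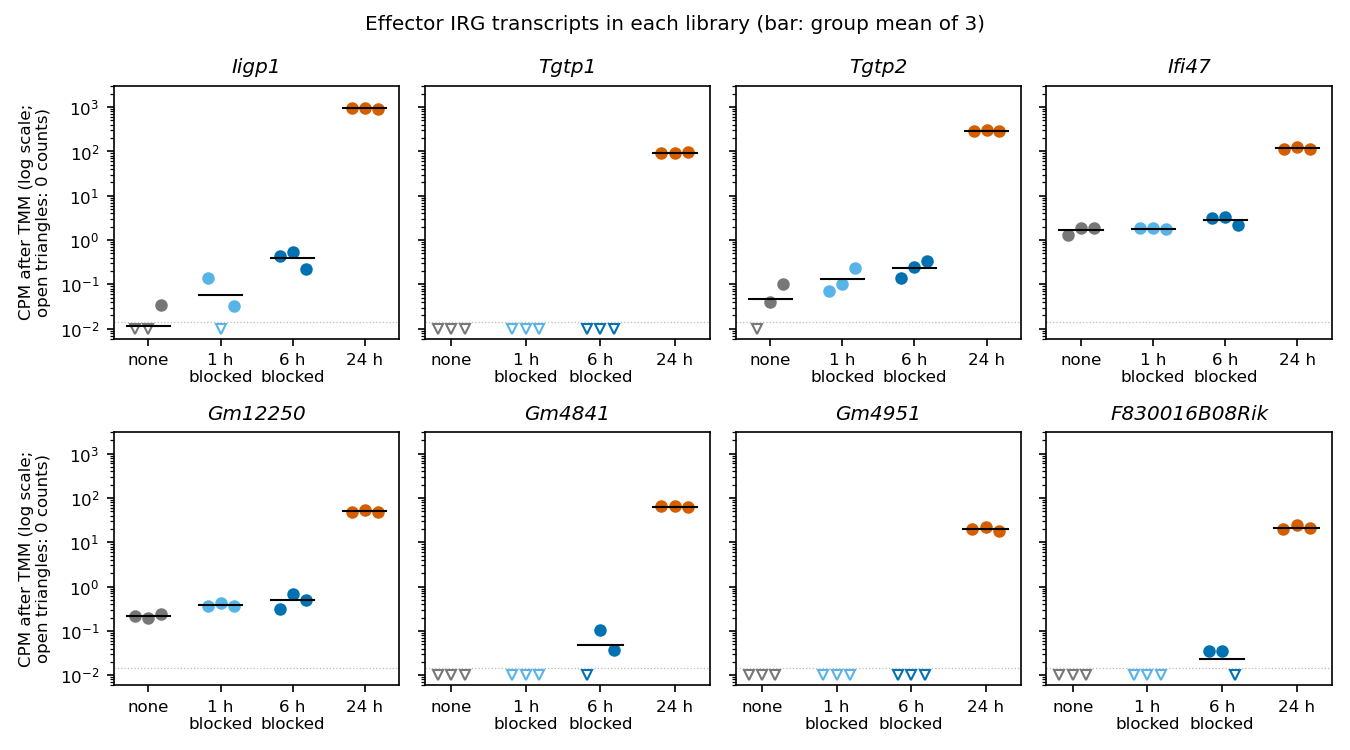
Level of each effector IRG transcript in each of the 12 libraries, in CPM after TMM on a log axis, for cells with no IFN-γ, with exposures of 1 h and 6 h ended by antibody, and with 24 h. Bars are means of 3 libraries and open triangles below the dotted line are libraries with 0 counts; the 24 h libraries lie above all others in each panel.

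Iigp1 encodes Irga6, the effector whose structure and vacuole loading have been studied most. It had 0, 0 and 2 counts in the unstimulated libraries and 54994, 52281 and 62113 after 24 h, or 0.0113 ± 0.0196 CPM against 937.5 ± 12.1 CPM (SD, n = 3). The fold of 77000 has an exact interval of 13800 to 3040000, since it rests on 2 counts in unstimulated cells. Its fitted log2 fold change ranked 1 of the 14299 genes. That value depends on the prior count given to a gene so near 0, and it moved from 16.0 to 18.72 without replicate 3 of the unstimulated group.

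The Tgtp genes encode Irgb6, among the first effectors to reach the vacuole of Toxoplasma gondii. Tgtp2 had 0, 2 and 6 counts in unstimulated cells and 16708, 16645 and 19179 after 24 h, a fold of 5970 (2330 to 21900) and a log2 fold change of 12.48 with an SE of 0.16 (edgeR adjusted p = 1.73e-24). Without replicate 3 of the unstimulated group it was 13.75. Tgtp1 had 0 counts in all 9 libraries outside the 24 h group and 5370, 5109 and 6422 in it, at least 2560-fold higher than unstimulated. With the counts of both genes summed, which removes the question of which copy a read came from within this pair, the log2 fold change was 12.88 ± 0.15 (edgeR adjusted p = 2.78e-25).

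Ifi47, which encodes Irgd, was the effector with the highest level before IFN-γ. Its libraries held 73, 95 and 109 counts in unstimulated cells and 6733, 7063 and 7826 after 24 h, or 1.689 ± 0.327 and 119.9 ± 6.76 CPM. It rose by the smallest factor of the 8, 71.0-fold (60.2 to 84.9), with a log2 fold change of 6.15 ± 0.11 (edgeR adjusted p = 4.64e-24). Gm12250 encodes Irgb10, known for attacking the membranes of bacteria and of their inclusions. It had 12, 10 and 14 counts before and 2865, 2930 and 3256 after 24 h, a fold of 229 (145 to 386) and a log2 fold change of 7.83 ± 0.15 (edgeR adjusted p = 6.39e-26). These 2 genes were the only members with counts in all 12 libraries.

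The 3 Ifgga-type genes of chromosome 18 (Gm4951 is Ifgga2, Gm4841 Ifgga3 and F830016B08Rik Ifgga4 among RefSeq synonyms) are relatives of Iigp1 whose function is less studied. None had a count in any unstimulated or 1 h library. After 24 h, Gm4841 had 3762, 3648 and 4141 counts (64.0 ± 2.23 CPM), at least 1750-fold above unstimulated. Gm4951 had 1191, 1231 and 1203 counts (20.2 ± 2.19 CPM), at least 549-fold above it. F830016B08Rik had 1134, 1348 and 1387 counts (21.5 ± 2.56 CPM), at least 586-fold above it. A group at 0 allows up to 6 counts over its 3 libraries, so low levels of these 3 genes before IFN-γ were not detectable at this depth.

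Compared per length, in CPM per kb of exon, the 8 genes spanned a wide range after 24 h. Iigp1 was first with 162, 162 and 159 (161 ± 2.07, SD, n = 3), followed by Tgtp2 at 99.0 ± 2.93, Ifi47 at 48.5 ± 2.73 and Gm12250 at 39.4 ± 1.91. Tgtp1 (29.1 ± 0.583) and Gm4841 (22.6 ± 0.786) came next, and Gm4951 (7.63 ± 0.829) and F830016B08Rik (6.52 ± 0.777) were lowest. Each neighbour in this order was separated from the next without overlap of libraries, except Gm4951 and F830016B08Rik, whose libraries overlapped. The largest step was the 2.95-fold one between Gm4841 and Gm4951, and the step from Iigp1 to Tgtp2 was 1.63-fold. Among 14281 genes with an exon length, Iigp1 ranked 222 and Tgtp2 383 in the 24 h cells, while F830016B08Rik ranked 5864.

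**Figure D2:**
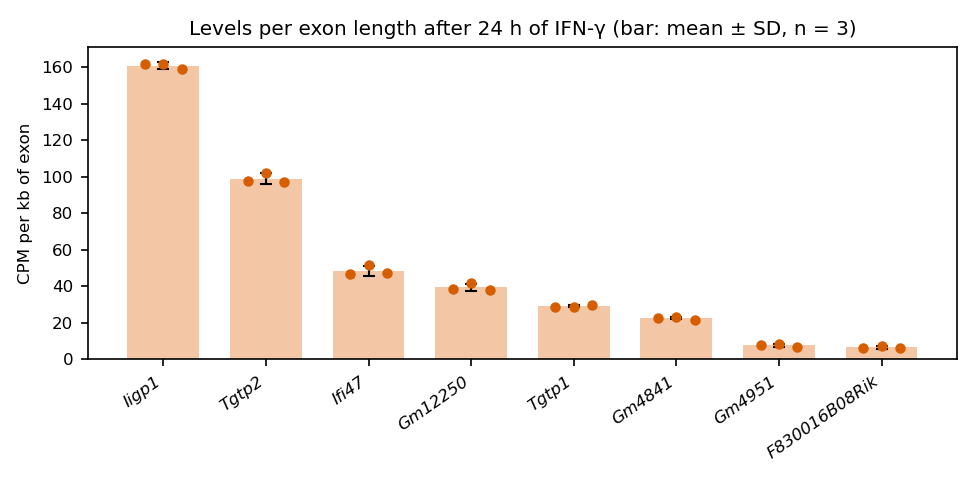
Levels of the 8 effector genes after 24 h of IFN-γ in CPM per kb of exon, with each library as a point and bars at the mean ± SD of 3 libraries. Levels fall from 161 for Iigp1 to 6.52 for F830016B08Rik, and the libraries of Gm4951 and F830016B08Rik overlap.

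The composition of the effector pool was nearly the same in the 3 libraries of the 24 h group. Iigp1 made up 57.9% to 59.3% of all effector counts, Tgtp2 18% to 18.4%, Ifi47 7.26% to 7.83% and Tgtp1 5.66% to 6.09%. Gm4841 gave 3.92% to 4.06%, Gm12250 3.09% to 3.25%, and F830016B08Rik and Gm4951 between 1.14% and 1.49% each. Shares of counts grow with exon length. Per kb of exon, Iigp1 made up 38.1% to 39.5% and Tgtp2 23.8% to 24.1%. Gm12250 then gave 9.38% to 9.76%, above Tgtp1 at 6.77% to 7.35%. Tgtp1 was 24.3%, 23.5% and 25.1% of the counts of the Tgtp pair in the 3 libraries. In the other 9 libraries it was 0 of 72 counts, which allows a share of up to 8.33%. A change of the share between groups was not tested, and reads of the 2 copies cannot be told apart over most of their length.

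With exposure ended after 6 h, 4 of the 8 effector genes were still higher than in unstimulated cells at collection, at levels far below those of 24 h: Iigp1, Tgtp2, Ifi47 and Gm12250 (edgeR, adjusted p under 0.05). Of all genes tested, 1.17% were called higher and 0.427% lower, and no effector gene was among the latter. In the same 4 genes every 6 h library lay above every unstimulated one, as in 8.64% of all genes. The summed level of the 8 genes was 4.103 ± 0.802 CPM (SD, n = 3), against 1.965 ± 0.381 CPM in unstimulated cells, and the counts were 230, 286 and 177. Without replicate 3 of the 6 h group, the library that stood apart, 3 of the 8 were called, where 2.54% of all genes were called higher. With only the 6 libraries compared in the fit, 3 of the 8 passed the filter on low counts and 1 was called, Iigp1. With halved counts, closer to the number of read pairs, 2 of the 8 were called, Iigp1 and Ifi47. Iigp1, Tgtp2 and Gm12250 rest on at most 40 counts in any 1 of these libraries.

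Iigp1 had 24, 32 and 12 counts in the 6 h libraries, against 0, 0 and 2. The fold was 33.3 (5.58 to 1350) and the log2 fold change 4.83 with an SE of 0.78 (edgeR adjusted p = 0.0042). This call held when each library of either group was left out in turn, with an adjusted p of 0.0385 at most, but the size of the change did not: without replicate 3 of the unstimulated group, which holds the 2 counts of that group, the log2 fold change was 7.55 (adjusted p = 0.0138). Without replicate 3 of the 6 h group its log2 fold change was 5.1 (edgeR adjusted p = 5.37e-05).

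Ifi47 had 178, 192 and 119 counts, or 3.16, 3.30 and 2.23 CPM, against 1.31, 1.90 and 1.85 CPM in unstimulated cells. It rose 1.73-fold (1.4 to 2.15), with a log2 fold change of 0.79 ± 0.14 (edgeR adjusted p = 0.00226), and this call too held with each library left out. It was lost when only the 6 libraries compared were fitted (0.78, adjusted p = 0.0883). Replicate 3 was the lowest of the 6 h libraries for Iigp1 and Ifi47. Without it the log2 fold change of Ifi47 was 0.93 (edgeR adjusted p = 1.55e-05).

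The calls of the other 2 genes were less firm. With halved counts neither passed (edgeR adjusted p = 0.0716 for Tgtp2 and 0.0861 for Gm12250). Tgtp2 had 8, 14 and 18 counts against 0, 2 and 6, a fold of 4.9 (1.64 to 19.7) and a log2 fold change of 2.24 ± 0.56 (edgeR adjusted p = 0.0452). Leaving out 1 library ended this call for 4 of the 6 libraries compared: the adjusted p was 0.176 and 0.109 without replicates 1 and 2 of the unstimulated group, and 0.139 and 0.0806 without replicates 2 and 3 of the 6 h group. Without replicate 3 of the unstimulated group the log2 fold change was 3.51 (adjusted p = 0.0141). Gm12250 had 18, 40 and 26 counts against 12, 10 and 14, a fold of 2.28 (1.29 to 4.22) and a log2 fold change of 1.18 ± 0.27 (edgeR adjusted p = 0.0215), which was also lost for 4 of 6 libraries. Its adjusted p was 0.105, 0.0535 and 0.0683 without unstimulated replicates 1, 2 and 3, and 0.248 without replicate 2 of the 6 h group. It held without replicate 3 of that group (1.2, adjusted p = 0.0214). Gm4841 had 0, 6 and 2 counts and F830016B08Rik 2, 2 and 0, where unstimulated cells had 0. Gm4841 was not called (edgeR adjusted p = 0.131), except without replicate 1 of the 6 h group (0.0467). Tgtp1 and Gm4951 remained at 0.

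**Figure D3:**
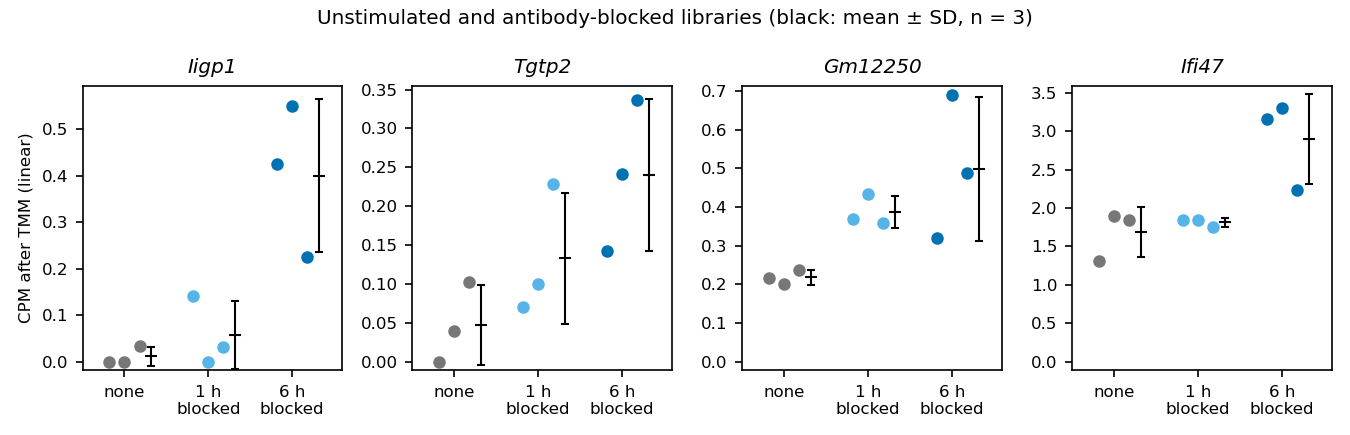
Levels of Iigp1, Tgtp2, Gm12250 and Ifi47 in CPM after TMM on linear axes of different range, in cells with no IFN-γ and with exposures of 1 h and 6 h ended by antibody. Points are libraries and black marks are the mean ± SD of 3; in each panel all 6 h points lie above all unstimulated points, and for Gm12250 the 1 h points do too.

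After an exposure of 1 h, no effector gene was called higher or lower by edgeR or by DESeq2, with 2 of the 8 at an unadjusted edgeR p under 0.05, where 0.273% of all genes were called higher and 0.147% lower. The counts of the 8 genes were 138, 143 and 145, or 2.393 ± 0.0301 CPM (SD, n = 3), with a mean above that of unstimulated cells and no test of the sum. Gm12250 had 21, 26 and 22 counts against 12, 10 and 14, without overlap, as in 7.8% of all genes. Its fold of 1.77 has an interval of 0.958 to 3.28, and its log2 fold change of 0.82 ± 0.29 did not pass (edgeR adjusted p = 0.313). Iigp1 had 8, 0 and 2 counts and Tgtp2 4, 6 and 14, with folds of 4.62 (0.517 to 218) and 2.77 (0.84 to 11.8). Ifi47 was at 1.815 ± 0.0588 CPM, a fold of 1.08 (0.859 to 1.37). Differences of this size in Iigp1 or Tgtp2 were not detectable at these counts.

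Set directly against the 1 h exposure, the 6 h exposure left 1 effector gene higher, Ifi47, with a log2 fold change of 0.68 with an SE of 0.14 (edgeR adjusted p = 0.0438), where 0.0839% of all genes were called higher. The call was lost with halved counts (adjusted p = 0.104) and for 5 of the 6 libraries left out in turn, with an adjusted p of 0.212, 0.197 and 0.294 without replicates 1, 2 and 3 of the 1 h group and 0.183 and 0.291 without replicates 1 and 2 of the 6 h group. It held without replicate 3 of the 6 h group (0.83, adjusted p = 0.000421). Iigp1 was 7.21-fold higher (2.81 to 23.6), and its libraries did not overlap, as in 5.14% of all genes. It did not pass with all libraries (log2 fold change 2.8 ± 0.56, edgeR adjusted p = 0.105), and passed without replicate 3 of the 6 h group (3.07, adjusted p = 0.0034) or replicate 1 of the 1 h group (4.45, adjusted p = 0.00206). Tgtp2 and Gm12250 had folds of 1.77 and 1.29 with overlapping libraries.

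All 8 genes were higher after 24 h than after either shorter exposure (edgeR), where 8.92% of all genes were called higher against 6 h and 10.2% against 1 h. The 24 h libraries lay above those of the other group in all 8, as in 15.6% of all genes against 6 h and 17.8% against 1 h. Tgtp1, Gm4841, Gm4951 and F830016B08Rik passed the filter on low counts through the 24 h group alone, which fixed their separation beforehand. That holds against 6 h too, where Gm4841 had 0, 6 and 2 counts and F830016B08Rik 2, 2 and 0. Against 6 h the folds were 2310 (1660 to 3340) for Iigp1, 1340 (523 to 4920) for Gm4841, 1220 (790 to 2000) for Tgtp2 and 898 (248 to 7420) for F830016B08Rik. They were 100 (73.9 to 139) for Gm12250 and 41.1 (36.2 to 46.9) for Ifi47. Tgtp1 was at least 2620-fold and Gm4951 at least 561-fold higher. All 8 also passed without replicate 3 of the 6 h group (edgeR adjusted p of 5.39e-19 or lower). Against 1 h the folds ran from 65.9 for Ifi47 to 16700 for Iigp1. Low counts in single libraries moved some of these by over 1.5 times: the log2 fold change of Gm4841 against 6 h was 10.33, and 11.62 without replicate 2 of the 6 h group. Against 1 h, Iigp1 was at 13.97, and at 15.62 without replicate 1 of the 1 h group, and Tgtp2 at 11.05, and at 11.69 without replicate 3 of that group. Exposure time and the time since the cytokine was blocked change together in this design, so they cannot be told apart.

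The level left at collection can be written as a share of the rise seen at 24 h, (6 h minus unstimulated) over (24 h minus unstimulated). For the 8 genes it had a median of 0.0697%, from 0% for Tgtp1 and Gm4951 to 1.02% for Ifi47. The level of Iigp1 in the 3 libraries of the 6 h group was 0.0454%, 0.0587% and 0.024% of its 24 h mean, with replicate 3 the lowest. Of the rise, Iigp1 kept 0.0415%, Tgtp2 0.0662% and Gm12250 0.56%. After 1 h the median was 0.00248% (0% to 0.339%). For comparison, 27 other genes with a log2 fold change of at least 5 and at least 1 CPM had a median of 0.324% after 6 h (-1.12% to 23.8%), and 209 other genes called higher at least 2-fold had 6.98% (-26.7% to 97.9%). These shares share the same 24 h and unstimulated libraries and carry no test.

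Neighbouring genes were counted within 100 kb of the 8. Of 27 neighbours, 14 were tested, of which 11 were called higher after 24 h and 3 were not called (Cnot8, Gemin5 and Smim3). The share called higher over all genes tested was 10.3%. Gm12185, Gm5970 and BC023105 were at or close to 0 elsewhere and entered the 14 through the 24 h group alone. That they were higher there was thus fixed beforehand. Near Tgtp1, Gm12185 went from 12 to 10689 counts over 3 libraries, with a log2 fold change of 9.62 ± 0.19 (edgeR adjusted p = 9.64e-24). Olfr56, an olfactory receptor gene whose body spans Tgtp1, Tgtp2 and Ifi47 and which shares exon bases with Ifi47, went from 7 to 1476 counts, and was chosen for mention after its values were seen. On chromosome 18, the processed pseudogenes Gm5970, inside the body of Gm4951, and BC023105, 49.1 kb from Iigp1, went from 0 counts in 9 libraries to 942 and 1434. Mrpl22, a mitochondrial ribosomal protein gene 8.17 kb from Gm12250, was called with a log2 fold change of 0.23, and Psme2b with 1.32.

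**Figure D4:**
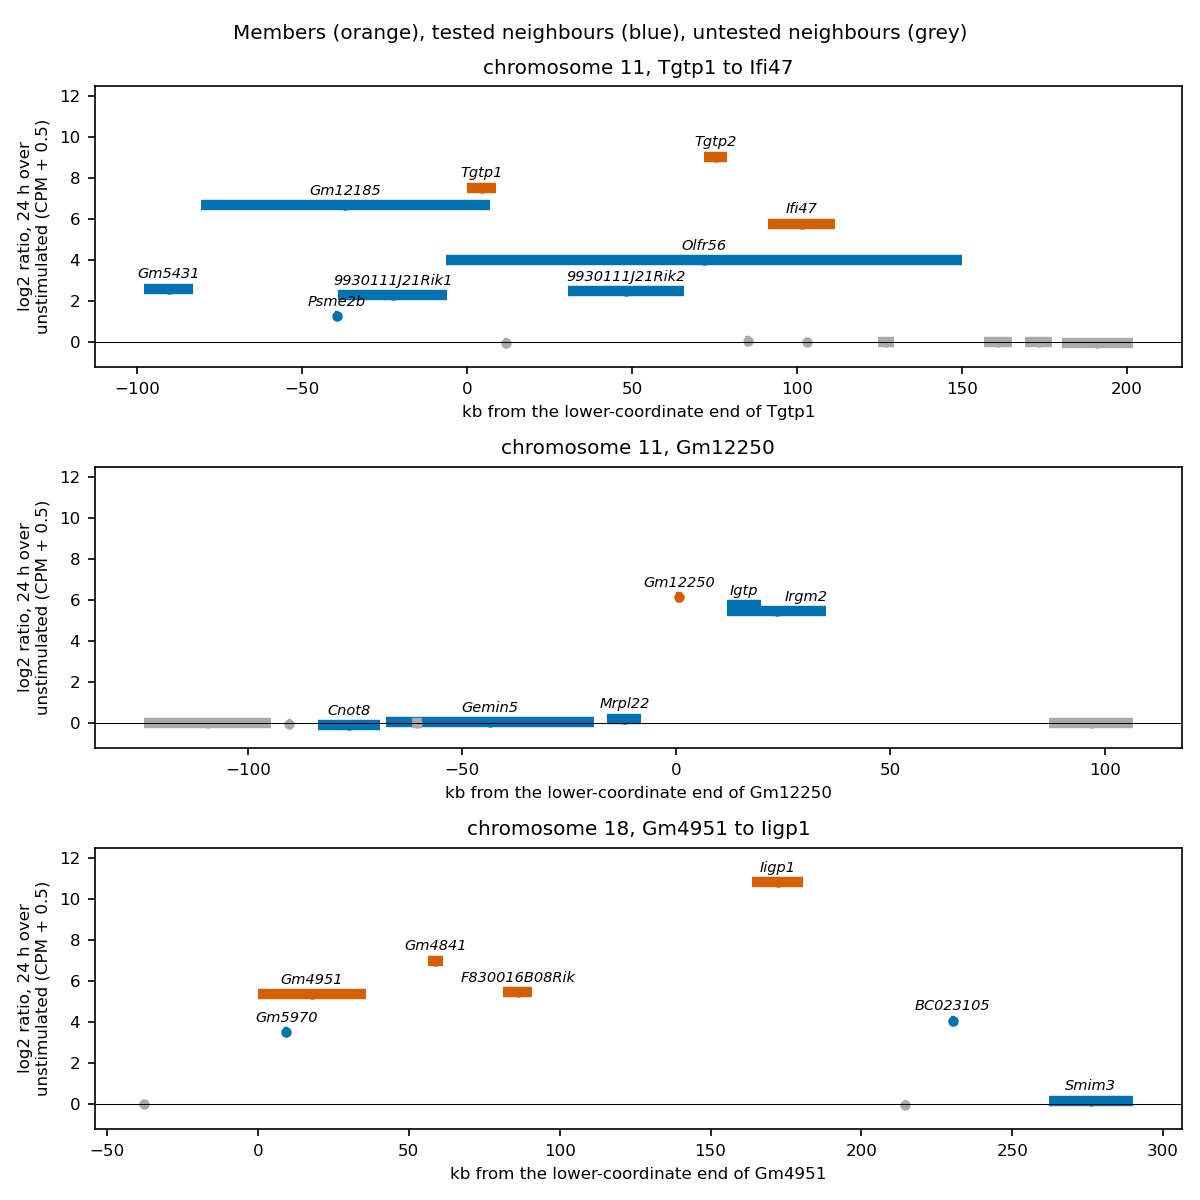
The 3 places where the 8 effector genes lie, by distance in kb, with the log2 ratio of 24 h over unstimulated levels (CPM + 0.5) on the vertical axis. Orange marks are effector genes, blue marks tested neighbours and grey marks untested ones; Cnot8, Gemin5, Mrpl22 and Smim3 lie near 0.

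All 3 regulatory IRG genes, whose products hold the effectors inactive on the cell's own membranes, rose after 24 h. Irgm1 went from 7.86 ± 0.862 to 235.1 ± 4.35 CPM (log2 fold change 4.9 ± 0.07, edgeR adjusted p = 1.25e-28). Irgm2 went from 2.572 ± 0.155 to 136.0 ± 5.59 CPM (5.72 ± 0.11) and Igtp from 2.98 ± 0.515 to 188.5 ± 3.87 CPM (5.99 ± 0.1). The mean of each of the 3 was above 2 CPM before IFN-γ, while that of each of the 8 effectors was below 2 CPM. This split was not kept per kb of exon, where Irgm2 (0.697 ± 0.0421) and Ifi47 (0.683 ± 0.132) lay close together. After the 6 h exposure none of the 3 was called (edgeR adjusted p 0.709, 0.924 and 0.194), where 4 of 8 effectors were, and that difference between the groups of genes was not tested. None of the 3 was called without replicate 3 of the 6 h group either. Their share of the 24 h rise left after 6 h had a median of 0.0713% (-0.372% to 0.21%).

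Other genes of IRG type divided. Gm12185, Gm5431 (3.61), 9930111J21Rik1 (2.57) and 9930111J21Rik2 (2.59) rose after 24 h on the log2 scale, while Irgc1 (1.41, edgeR adjusted p = 0.11) and Irgq (-0.1, adjusted p = 0.22) were not called. The guanylate-binding proteins, large GTPases that act on the same vacuoles, had 9 of 11 members tested. All 9 were called higher, where 10.3% of all genes tested were, with a median log2 fold change of 8.05 against -0.003 over all genes. Gbp2b, Gbp4, Gbp6 and Gbp10 were at or close to 0 elsewhere and passed the filter through the 24 h group alone. Their rise was thus fixed beforehand, and Gbp2b (0.311 CPM) and Gbp10 (0.296 CPM) were low at 24 h as well. Gbp4 rose from 0.0134 to 115 CPM (12.98 ± 0.17) and Gbp7 from 0.0767 to 224 CPM (11.54 ± 0.16). After 6 h, 3 of the 9 were called higher, Gbp2 (2.12), Gbp3 (0.36) and Gbp7 (1.97), where 1.17% of all genes tested were. The same 3 were called without replicate 3 of the 6 h group, where 2.54% of all genes were called higher.

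Along the route from the IFN-γ receptor to the nucleus, 7 of 14 genes were called higher and 1 lower after 24 h. The shares over all genes tested were 10.3% higher and 8.35% lower, so 1 lower call of 14 is near the latter. Irf1, the transcription factor that binds ISRE elements, rose from 10.6 ± 0.245 to 221 ± 8.92 CPM (log2 fold change 4.39 ± 0.06), and Socs1, an inhibitor of JAK kinases, rose by 4.53 ± 0.19. The gene called lower was Ptpn6, which encodes the phosphatase SHP-1 (-0.24 ± 0.06, edgeR adjusted p = 0.00547). After 6 h and after 1 h none of the 14 passed in edgeR, and after 6 h Irf1 was at 12.1 ± 0.579 CPM (adjusted p = 0.109). Without replicate 3 of the 6 h group, Socs1 alone of the 14 was called, where 2.54% of all genes were called higher.

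Transcripts of the ATG conjugation machinery changed little. Of its 10 genes, 1 was called higher after 24 h and none lower, where 10.3% of all genes tested were called higher. It was Atg16l1, whose product directs lipidation of ATG8 proteins. Its level went from 59.0 ± 0.629 to 68.2 ± 0.757 CPM (log2 fold change 0.21 ± 0.05, edgeR adjusted p = 0.00219). Of 5 ubiquitin factors that act at the vacuole, the ubiquitin ligases Trim21 (0.77 ± 0.09) and Rnf213 (0.48 ± 0.09) were called higher and none lower. The median log2 fold changes of these lists were 0.09 and -0.07.

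**Figure D5:**
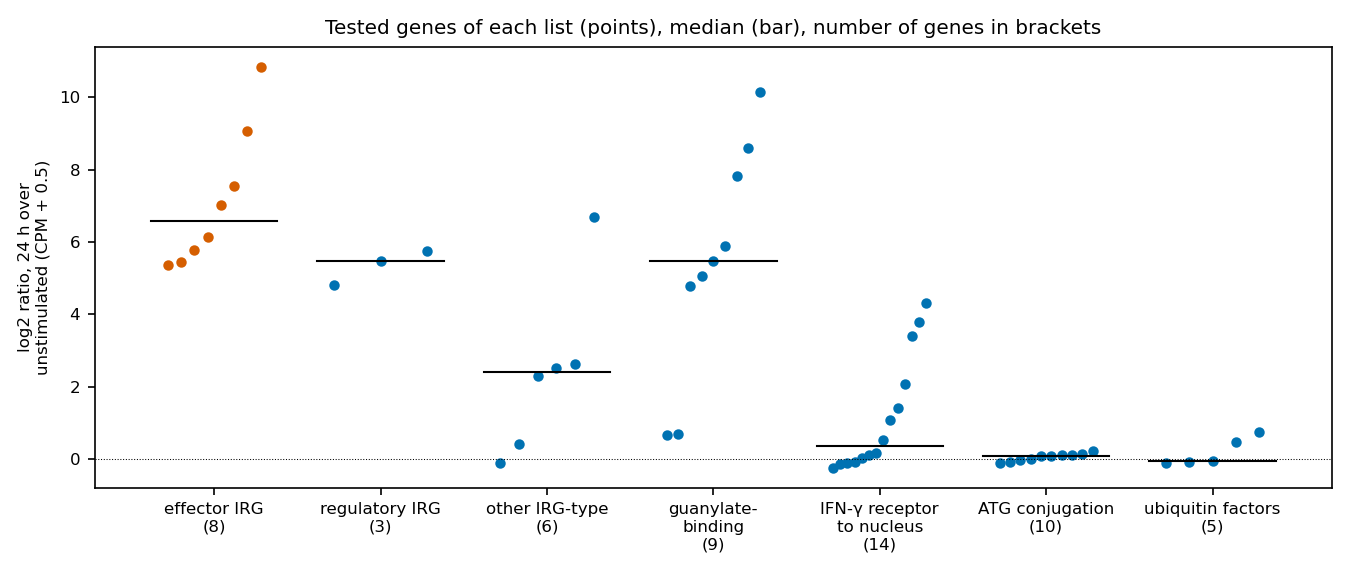
Log2 ratio of 24 h over unstimulated mean levels (CPM + 0.5) for each tested gene of 7 lists, with the list's median as a bar and the number of genes in brackets. The medians are 6.57 for the effector genes, 5.47 for the regulatory IRG genes and 5.48 for the guanylate-binding proteins, against 0.08 for the ATG conjugation genes; the added 0.5 CPM lowers the ratio of genes near 0.

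The genes whose pattern was most like the mean log2(CPM + 0.5) of the 8 over the 12 libraries were Gbp4 (Pearson r = 0.9997), Irf1 (0.9996), Serpina3f (0.9995), Gbp7 (0.9992) and Gbp9 (0.9988). The libraries fall in 2 clusters, 3 of 24 h and 9 others, so r here measures mainly the step between them and is given as a description. In all, 62 of 9838 candidate genes had an r of at least 0.99. The 8 members themselves had an r of 0.9968 (Ifi47) to 0.9997 (Gm4841) with their own mean.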

How the data were processed

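Stranded RNA-seq libraries were made from 500 ng of total RNA by polyA selection with 10 cycles of PCR and sequenced with paired 125-base reads, per the labels. What the authors deposited is a single table of raw gene counts; STAR 2.5.2a, featureCounts 1.4.3-p1, Picard and mm10 are named in the submitters' processing notes. How the counting treated strand and reads with several matches, and its annotation release, is not given in the sources used here. Counts were used as deposited: filterByExpr, TMM, and robust quasi-likelihood F tests in edgeR 4.0.16 (R 4.3.3) on all 12 libraries in 1 fit with 8 residual degrees of freedom, Benjamini-Hochberg over 14299 genes, called at an adjusted p under 0.05. The fit was tested on simulated data in which no gene had a mean near 0 and folds were smaller than the largest here. That test does not cover genes near 0. The standard error of a log2 fold change is its size over the square root of F. CPM were computed from the counts after TMM. Gene symbols were found for 53274 of 53379 identifiers. Libraries of a group differed by more than sampling noise (chi-square per degree of freedom 2.526 to 8.483 on halved counts), so none was counted as a repeat.

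Members and lists were chosen with earlier results of these data known. The naming rule took all 8 members, the 3 regulatory IRG genes, from each other list the 2 called genes with the largest change after 24 h (all where 5 or fewer were called), and the 5 genes of most similar pattern. Alternatives were DESeq2 1.42.0, RLE size factors, no filter, a replicate block, a fit restricted to the 6 libraries of a comparison, halved counts, the Tgtp pair summed, and each library left out.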

Additional observations from a re-analysis of the deposited data

How the results depend on the processing

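In the 3 comparisons with the 24 h group, each effector gene kept its direction and call under each of the 19 alternatives run (18 for Tgtp1), and the number called was 8 throughout, apart from 7 of 7 where the Tgtp pair was summed to 1 gene. Against unstimulated cells, the 6 h exposure left 4 genes called; halved counts gave 2, a fit to the 6 libraries compared gave 1 (3 of the 8 passed its filter), and leaving out 1 library gave 2 to 5. Ifi47 was lost in that fit (adjusted p = 0.0883), while Gm12250 was lost there (0.251) and with halved counts (0.0861). For 6 h against 1 h, 1 gene was called; without a filter it was 2, with only the 6 libraries compared 0, and with 1 library left out 0 to 2. Dropping any 1 of the 24 h libraries, in neither group, ended the call of Ifi47 for 6 h against 1 h (0.053 to 0.0719). It also ended that of Tgtp2 for 6 h against unstimulated (0.056 to 0.0665), as did dropping replicate 2 of the 1 h group (0.0601). Iigp1 became called for 6 h against 1 h without a filter (2.06e-09), with halved counts (0.0268), where Ifi47 was lost (0.104), and without replicate 1 of the 1 h group (0.00206). Ifi47 reversed for 1 h against unstimulated without replicate 1 of the unstimulated group (log2 fold change -0.05, against 0.11, and up to 0.19 without replicate 2). Each fit with a library left out repeats the filter on low counts, the scaling and the adjustment over its own set of genes. The cause of these moves was not tested. DESeq2 called the same numbers of effector genes as edgeR in the 6 comparisons (8, 4, 0, 1, 8 and 8).

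Same-numbered libraries showed no shared deviation from their group means: correlations ran from -0.0656 to 0.0618, with 0 of 18 over 0.1. This cannot show whether they came from a common culture, which the labels do not give. With a replicate block, Tgtp2 in 6 h against unstimulated was no longer called (log2 fold change 2.24, adjusted p = 0.0557), which left 3 genes called, and the block changed no other call of an effector gene.

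Over all genes, calls for 6 h against unstimulated numbered 228, and 413 without a filter, 95 with the 6 libraries, 374 with DESeq2 and 89 to 531 with 1 library left out. For 1 h against unstimulated they numbered 60, and 174, 104, 128 and 15 to 122. For 6 h against 1 h they numbered 14, and 36, 9, 34 and 8 to 24. Depth limits the blocked groups: Iigp1, Tgtp2 and Gm12250 had at most 40 counts per library there.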
